A study of Mus musculus with 4 samples.

Results

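The background of the Mef2Da1 and Mef2Da2 antibodies was described from 2 of the 4 libraries of a chromatin immunoprecipitation and sequencing (ChIP-seq) study: the libraries in which each antibody had been blocked with peptide, Mef2Da1-BLOCK and Mef2Da2-BLOCK. The cells of all libraries were C2C12 (C2), an established mouse myoblast line, kept for 5 days in medium with 2% horse serum, insulin and transferrin, in which such cells fuse into myotubes. The Mef2D protein was the cells' own. Chromatin was fixed in 1% formaldehyde for 30 minutes, cut with MNase and sonicated, and the libraries had 21 rounds of PCR. The Mef2Da1 and Mef2Da2 antibodies without block served as context only. Each of the 4 groups was 1 library from 1 cell line, so no value has a replicate error, no difference between libraries was tested, and an effect of the antibody and one of the single library cannot be told apart. The comparison was made over all 19749 regions of the combined table, on 19 autosomes, in coordinates of the mouse build mm9.

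Mef2D belongs to the MEF2 family of MADS-box transcription factors, which bind A/T-rich sites and act with MyoD-family proteins in muscle differentiation. Its transcript carries either of a pair of mutually exclusive exons, which gives the isoforms Mef2Da1, found in many tissues, and Mef2Da2, which appears as muscle cells differentiate. Peptide blocking occupies the antibody's binding sites with the peptide it recognises, so that the DNA still recovered serves as a measure of background. The antibodies here were raised against peptides coupled to a carrier protein. The combined table holds a limited set of regions, so it samples the background there and not over the genome.

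The signal in each region is a coverage height, read as the largest number of reads stacked at any place within it. It is a whole number and was not adjusted for depth. Mef2Da1-BLOCK heights ran from 1 to 52 with a median of 19 (quartiles 14 and 24). Mef2Da2-BLOCK heights ran from 0 to 37 with a median of 12 (quartiles 9 and 16). The unblocked antibodies stood above these levels, at unscaled medians of 43 for Mef2Da1 and 37 for Mef2Da2. Their depth was unknown as well, and their −log10 p values summed to at least 6.06 in every region. The distance between blocked and unblocked medians is therefore no measure of enrichment. Unscaled, Mef2Da1-BLOCK was the higher blocked library in 16477 regions (83.4%, exact 95% binomial interval 82.9 to 83.9), the heights were equal in 759, and Mef2Da2-BLOCK was higher in 2513. Summed over the table, Mef2Da1-BLOCK had 1.52 times the height of Mef2Da2-BLOCK. Read totals were unknown, so this general difference and depth cannot be told apart, and all ratios below were taken after scaling each library to its total over the table. Intervals cover counting error only and treat regions as independent.

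After scaling, with a pseudocount of 1, the backgrounds of the blocked antibodies were close in most places. The median log2 ratio of Mef2Da1-BLOCK over Mef2Da2-BLOCK was 0.02 (quartiles −0.36 and 0.38), and 90.9% of regions (interval 90.5 to 91.3) lay within 2-fold. At least 2-fold more height was found for Mef2Da1-BLOCK in 1106 regions (5.6%) and for Mef2Da2-BLOCK in 687 (3.48%), together 9.08% of those compared. The counts were 378 and 202 with a pseudocount of 5, and 4931 and 85 without scaling. At least 4-fold more was found for Mef2Da1-BLOCK in 62 regions (0.31% of all) and for Mef2Da2-BLOCK in 7 regions (0.035%). Heights of this size are coarse: at the median heights, 1 more unit of Mef2Da2-BLOCK moves the log2 ratio by 0.11, and 1 more unit of Mef2Da1-BLOCK by 0.07. Across the 19749 regions the correlation of the blocked heights was 0.48 (Spearman) or 0.46 (Pearson). These regions share cells, aligner and table, and a wide region has more places for a high stack in either library, so the correlation is a description of these libraries and carries no p.

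**Figure D1:**
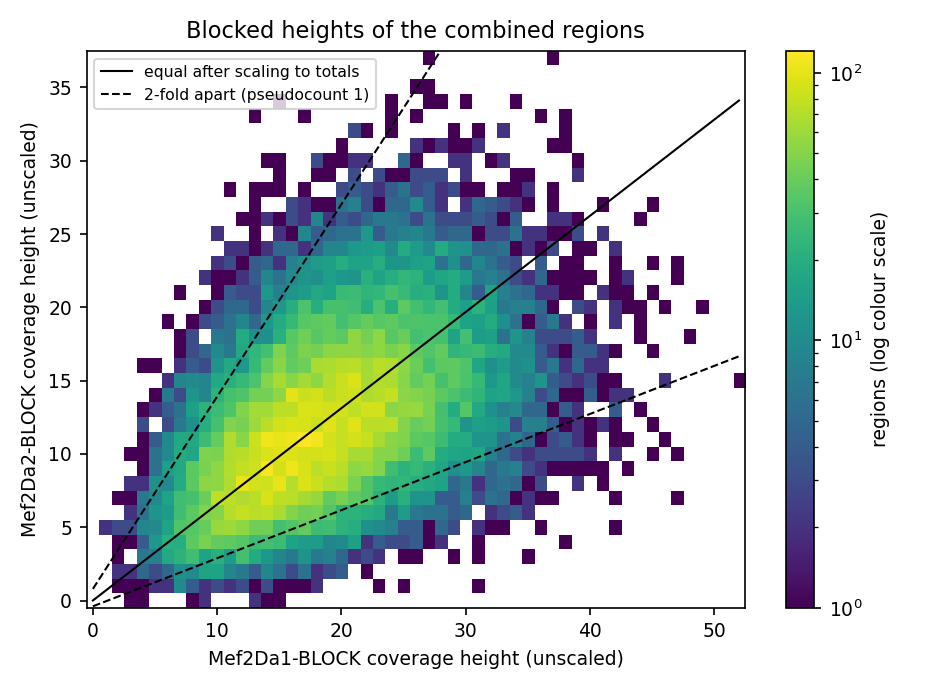
Number of regions (colour, log scale) at each pair of unscaled coverage heights, Mef2Da1-BLOCK on the horizontal and Mef2Da2-BLOCK on the vertical axis; the solid line marks equal heights after scaling to totals and the dashed lines a 2-fold difference with a pseudocount of 1. The cloud is centred near the solid line but is flatter than it, with 1106 regions beyond the lower dashed line and 687 beyond the upper one.

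Shared high background was then read from the upper end of each library. The highest 10% of Mef2Da1-BLOCK, with ties kept, held 2370 regions with a height of 28 or more (12.0% of all), and that of Mef2Da2-BLOCK held 2052 regions with 20 or more (10.4% of all). The lists had 576 regions in common, which was 24.3% of the first list (interval 22.6 to 26.1) and 28.1% of the second (26.1 to 30.1). Both shares were over 2 times those of all regions, yet most regions high in 1 blocked library were not in the list of the other. In 18.8% of the Mef2Da1-BLOCK list, Mef2Da2-BLOCK was below its own median, against 46.1% of all regions. The reverse held in 18.5% of the Mef2Da2-BLOCK list, against 49.6% of all regions. Shorter lists were then compared. In the highest 1%, with heights of 37 or more (225 regions, 1.14%) and 27 or more (207 regions, 1.05%), 12 regions were common, 5.33% (2.79 to 9.13) and 5.8% (3.03 to 9.91) of the lists, against 1.05% and 1.14% of all regions. These shares were smaller than in the longer lists, but larger relative to the shares of all regions.

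The 576 regions high in both were wide, with a median of 879.5 bp (quartiles 615 and 1185), against 691.5 bp where only Mef2Da1-BLOCK was high, 714 bp where only Mef2Da2-BLOCK was high and 525 bp in the 15903 regions in neither list. Their median blocked heights were 31 and 22, against 17 and 11 in neither list. Chromosome 15 held 16.7% of them (interval 13.7 to 19.97) and 7.35% of all regions. For chromosome 8 these shares were 11.8% (9.29 to 14.7) and 6.05%. The unblocked antibodies differed at these places: the median Mef2Da1 height was 56 against 41 in neither list, whereas the median Mef2Da2 height was 37 in both.

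By the highest mean of the scaled blocked heights, 6 regions led. The first lay on chromosome 8, 87595406 to 87596541, where both blocked libraries reached 37, against 61 for Mef2Da1 and 42 for Mef2Da2. On chromosome 1, 94683390 to 94684276, the blocked heights were 38 (Mef2Da1-BLOCK) and 33 (Mef2Da2-BLOCK), under unblocked heights of 350 and 342. On chromosome 4, 62160554 to 62161626, they were 38 and 32, and the unblocked heights only 40 and 27. This last region had about as much coverage with the blocked as with the unblocked antibody. No peak of either isoform was listed in it, nor in the regions from 90153518 on chromosome 1 and from 86710261 on chromosome 8 given below. Blocked heights of 36 and 33 were found on chromosome 11, 118109607 to 118110454, against 56 and 36. On chromosome 1, 90153518 to 90154323, they were 45 and 27, against 47 and 27. The sixth region, chromosome 8, 86710261 to 86711750, had 34 in both blocked libraries, against 45 and 38. In 5 of the 6, at least 1 unblocked antibody stood no more than 5 units of unscaled height above its own blocked control. That measure was chosen after the values were seen. Picking regions by high blocked height favours such a small distance, and its share over all regions was not computed.

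Regions with a 2-fold difference were narrower than the rest, and their higher library stood somewhat above its own overall median of 19 or 12. The 1106 regions higher in Mef2Da1-BLOCK had a median width of 446.5 bp and median heights of 21 in Mef2Da1-BLOCK and 5 in Mef2Da2-BLOCK. The 687 regions higher in Mef2Da2-BLOCK had a median width of 469 bp and median heights of 10 and 16. All regions had a median width of 556 bp. The unblocked libraries did not show the same split. The median log2 ratio of Mef2Da1 over Mef2Da2, scaled in the same way, was 0.12 (quartiles −0.38 and 0.58) in the regions higher in Mef2Da1-BLOCK and 0.09 (−0.40 and 0.48) in those higher in Mef2Da2-BLOCK, against 0.17 (−0.30 and 0.60) over all. Over all regions the blocked and unblocked log2 ratios had a Spearman correlation of 2.09e-05.

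Among regions where the higher blocked library reached 30, unscaled, the largest ratios toward Mef2Da1-BLOCK were found where Mef2Da2-BLOCK was almost empty. On chromosome 9, 42301538 to 42301824, Mef2Da1-BLOCK had a height of 31 and Mef2Da2-BLOCK of 1 (log2 ratio 3.56). On chromosome 1, 180379375 to 180379663, the heights were 35 and 3 (2.65). On chromosome 13, 46823281 to 46823644, they were 31 and 3 (2.48). These 3 regions were narrow, at 286, 288 and 363 bp. The next were chromosome 19, 42594225 to 42594705, with 38 and 4 (2.42), and chromosome 2, 22882974 to 22883406, with 42 and 5 (2.29). The sixth was chromosome 10, 40394815 to 40395105, with 31 and 4 (2.14). The unblocked Mef2Da1 antibody reached 42, 28, 46, 36, 58 and 48 in these regions in turn, so that in 2 of the 6 it was below its own blocked control. The regions were picked for a high Mef2Da1-BLOCK, which favours this, and the share over all regions was not computed.

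Toward Mef2Da2-BLOCK the largest ratios were smaller. On chromosome 13, 59686298 to 59686747, Mef2Da2-BLOCK had a height of 33 and Mef2Da1-BLOCK of 13 (log2 ratio −1.86). On chromosome 15, 102796864 to 102797189, the heights were 34 and 15 (−1.71), and on chromosome 16, 4497805 to 4498641, they were 30 and 14 (−1.63). Here the lower library was not empty but below its median. Chromosome 11 gave a pair of them, at 94840242 to 94840638 with 30 and 15 (−1.53) and at 76460705 to 76461382 with 33 and 17 (−1.50). The sixth, chromosome 17, 68353184 to 68353765, had 30 and 18 (−1.29). The unblocked Mef2Da2 antibody reached 25, 41, 45, 28, 54 and 22 in turn, below its own blocked control in 3 of the 6. Here too the choice of regions, by a high Mef2Da2-BLOCK, favours this, and no share over all regions was computed. An unscaled height of 30 is rarer in Mef2Da2-BLOCK, where it is 37.9 after scaling, while 31 in Mef2Da1-BLOCK is 25.7. The minimum is thus unequal and favours regions higher in Mef2Da1-BLOCK. Of the 1585 regions that met it, 210 were at least 2-fold higher in Mef2Da1-BLOCK and 23 in Mef2Da2-BLOCK. Over all 19749 regions these were 1106 (5.6%) and 687 (3.48%), so the split at this minimum does not compare the libraries.

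By chromosome, the blocked libraries moved together and their ratio hardly moved at all. Chromosome 15 had the highest medians in both, 22 for Mef2Da1-BLOCK (quartiles 18 and 27) and 14 for Mef2Da2-BLOCK (11 and 18), over 1452 regions. Chromosome 7 had the lowest in both, 15.5 (11.3 and 20) and 10 (7 and 14), over 858 regions. The other 17 chromosomes had medians of 17 to 20 and 11 to 13. Quartiles overlapped between all neighbours in this order, and those of chromosomes 15 and 7 overlapped too. Over the 19 chromosomes the mean heights of the blocked libraries had a Spearman correlation of 0.87. Mean height and median region width went together as well, at 0.80 for Mef2Da1-BLOCK and 0.92 for Mef2Da2-BLOCK. The median width was 625 bp on chromosome 15 and 502 bp on chromosome 7, and the part of width in these medians was not tested.

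The median log2 ratio was highest on chromosomes 14 (0.10), 16 (0.08) and 13 (0.06) and lowest on chromosomes 11 (−0.05), 19 (−0.04) and 6 (−0.02). The whole range of 0.15 is little more than 1 unit of height in Mef2Da2-BLOCK at the medians, and it was small beside the distance between quartiles within a chromosome, 0.68 to 0.83. Chromosome 15, the highest in both libraries, had a median log2 ratio of 0.02, the same as chromosome 7. More regions were at least 2-fold higher in Mef2Da1-BLOCK than in Mef2Da2-BLOCK on 17 of the 19 chromosomes, the others being 11 (3.94% and 4.28%) and 19 (3.75% and 4.6%). The correlation of blocked heights within a chromosome was 0.40 on chromosome 15, the lowest, and 0.52 on chromosome 8, the highest.

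**Figure D2:**
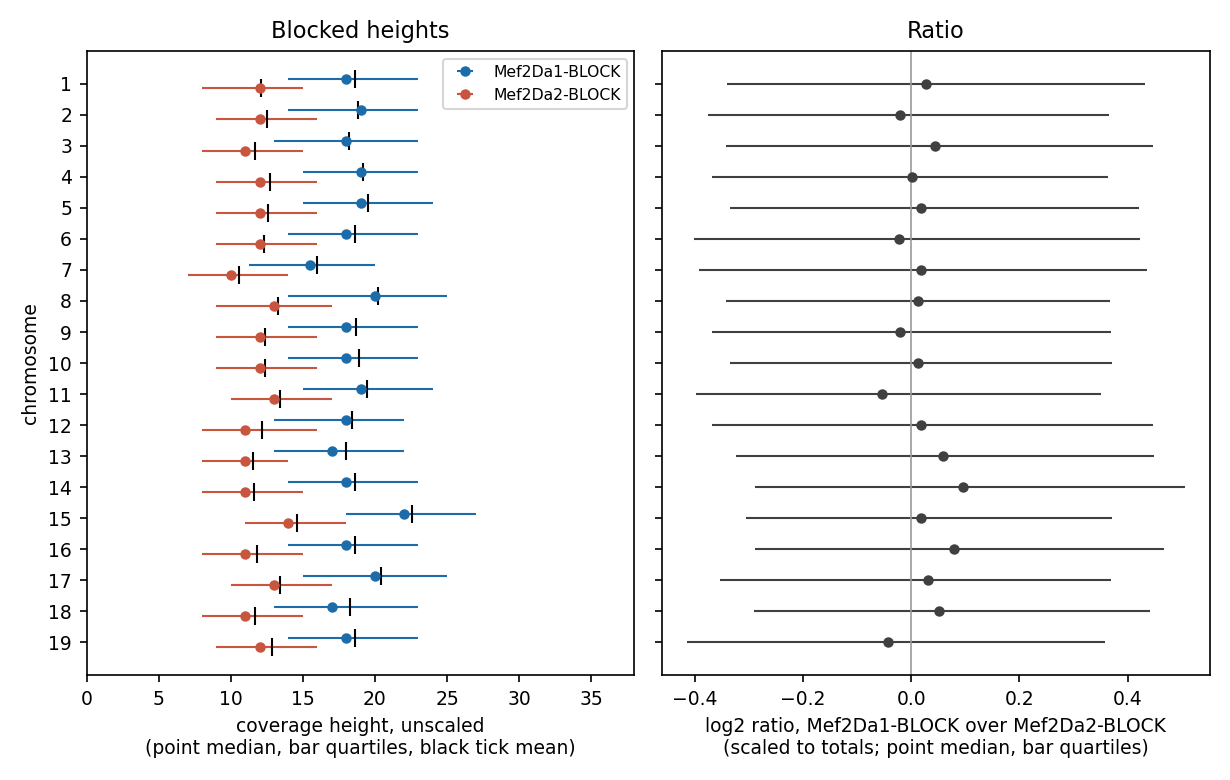
Left, unscaled coverage height of the regions of each chromosome in Mef2Da1-BLOCK (blue) and Mef2Da2-BLOCK (red), as median (point), quartiles (bar) and mean (black tick). Right, log2 ratio of the libraries scaled to totals, as median and quartiles; heights peak on chromosome 15 and dip on chromosome 7 in both libraries, while the ratio medians stay between −0.05 and 0.10.

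Fewer of the wider regions were past 2-fold, though the correlation of the blocked heights was not higher among them. It was 0.43 (Spearman) in the narrowest 25% of regions and 0.37 in the widest 25%. With regions put in order of width and cut into bins of 10% each, from the narrowest bin (223 to 354 bp) to the widest (1030 to 4258 bp), the median height rose from 14 to 24 in Mef2Da1-BLOCK and from 9 to 16 in Mef2Da2-BLOCK. The share at least 2-fold higher in Mef2Da1-BLOCK was 10.9% (interval 9.59 to 12.4) in the narrowest bin and 0.81% (0.46 to 1.31) in the widest. For Mef2Da2-BLOCK it was 5.87% (4.88 to 7.0) and 1.11% (0.70 to 1.68). Mef2Da1-BLOCK thus had more such regions among the narrow ones, while the intervals of the shares overlapped in the widest bin. The median log2 ratio was 0.08 in the narrowest 25% and −0.05 in the widest 25%, a difference of −0.13.

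By height, the share higher in Mef2Da1-BLOCK fell steadily, while that higher in Mef2Da2-BLOCK changed little. In the lowest 10% by mean scaled height, 14.8% of regions (13.3 to 16.5) were at least 2-fold higher in Mef2Da1-BLOCK and 3.85% (3.04 to 4.79) in Mef2Da2-BLOCK. In the highest 10% the order turned, with 1.32% (0.86 to 1.92) and 3.19% (2.46 to 4.06). The median log2 ratio was 0.24 in the lowest 10% and −0.19 in the highest. Binning by the same heights that form the ratio can give such a change of sign by itself. Where each background was relatively fuller can therefore not be read from it. In bins of 25%, 14.9% of regions were past 2-fold in the lowest and 5.19% in the highest, a difference of −9.72 percentage points. It was −1.36 points with a pseudocount of 5 and −4.7 points within score class 9, the largest class of regions by their deposited scores. The bins were made from the same heights as the ratio, and small whole numbers give coarse ratios, so this trend is a description of how the ratio behaves with height. The difference with width was also met at a given height. In the lowest 25% by height, the share past 2-fold was 18.99% in the narrowest 25% of regions (n = 2328) and 7.58% in the widest 25% (n = 277). In the highest 25% by height it was 10.4% (n = 444) and 3.17% (n = 2337).

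**Figure D3:**
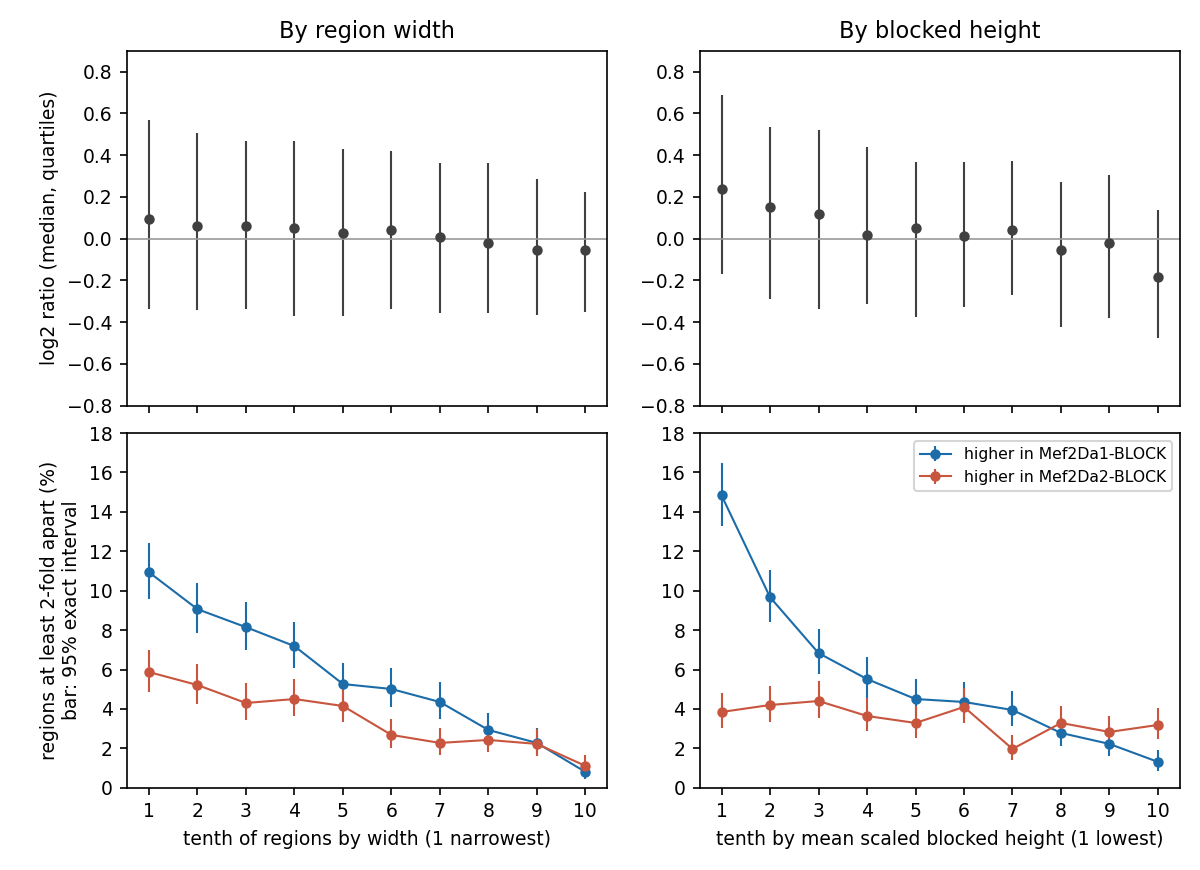
Log2 ratio of Mef2Da1-BLOCK over Mef2Da2-BLOCK (top; median and quartiles) and percentage of regions at least 2-fold higher in each library (bottom; bars are exact 95% intervals), by bins of 10% of regions in order of width (left) and of mean scaled blocked height (right). The share higher in Mef2Da1-BLOCK falls from 10.9% to 0.81% with width and from 14.8% to 1.32% with height, while that higher in Mef2Da2-BLOCK stays between 1.97% and 4.41% over the height bins.

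The deposited scores of the blocked libraries held an unlabelled grouping of the regions. The table gives each region and library a value headed as a log p, which for the blocked libraries was read as a score because 1 value of Mef2Da1-BLOCK and 9 of Mef2Da2-BLOCK were below 0. A given height did not have a single score. It had up to 9. Linking regions that had the same height and the same score in any of the 4 libraries put every region into exactly 9 classes, and within a class each height had a single score in all 333 pairs of height and class of Mef2Da1-BLOCK and all 247 of Mef2Da2-BLOCK. What the classes stand for is not given in the sources used here. They were numbered by the mean rank of their Mef2Da1-BLOCK scores, from the highest (class 1) to the lowest (class 9), and the curves of some classes cross at larger heights. A height of 15 in Mef2Da1-BLOCK, for example, scored 2.25 in class 1 and 1.24 in class 9, and a height of 10 in Mef2Da2-BLOCK scored 2.18 and 0.96.

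Blocked heights differed between these classes in both blocked libraries alike. Class 9 held 9784 regions (49.5%) and class 1 held 256. From class 1 to class 9 the median height rose from 11 to 21 in Mef2Da1-BLOCK and from 6 to 14 in Mef2Da2-BLOCK, without a fall at any step. The classes and their order were taken from the deposited heights and scores, so this rise is not independent of how they were made. The unblocked antibodies went separate ways: the median Mef2Da1 height rose from 32 to 45, whereas that of Mef2Da2 was 47 in class 1 and 31 in class 9. The −log10 p of Mef2Da1 and Mef2Da2 summed to at least 6.06 in every region of the table, and at a given height these values differ between classes. How regions were picked is not given in the sources used here, and its part in the medians was not tested. Width moved with the class too, from a median of 367 bp to 629 bp. Within the narrowest 25% of regions the blocked medians were still 10 and 6 in class 1 (n = 168) and 17 and 11 in class 9 (n = 1523).

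Within the largest class, chromosomes 15 and 7 still had the highest and lowest medians. Within class 9 the Mef2Da1-BLOCK median was 25 on chromosome 15, 17 on chromosome 7 and 20 to 22 on every other chromosome. The Mef2Da2-BLOCK median was 16, 12 and 13 to 15. Of the regions on chromosome 11, 64.7% were in class 9, the largest share, and on chromosome 13 it was 32.7%, the smallest. Class 9 also held 84.2% (interval 81.0 to 87.1) of the 576 regions high in both blocked libraries. Differences between the libraries were more frequent in the classes with low background: 16.8% (12.4 to 21.9) of class 1 regions were at least 2-fold higher in Mef2Da1-BLOCK, against 3.8% (3.43 to 4.2) of class 9. For Mef2Da2-BLOCK it was 4.3% (2.16 to 7.56) and 2.77% (2.45 to 3.11). In either direction together the shares were 21.1% in class 1 and 6.57% in class 9. Within the lowest 25% of regions by mean scaled height they were 21.4% (n = 215) and 10.8% (n = 1023), a smaller contrast. Each of the other height bins held 23 or fewer class 1 regions.

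**Figure D4:**
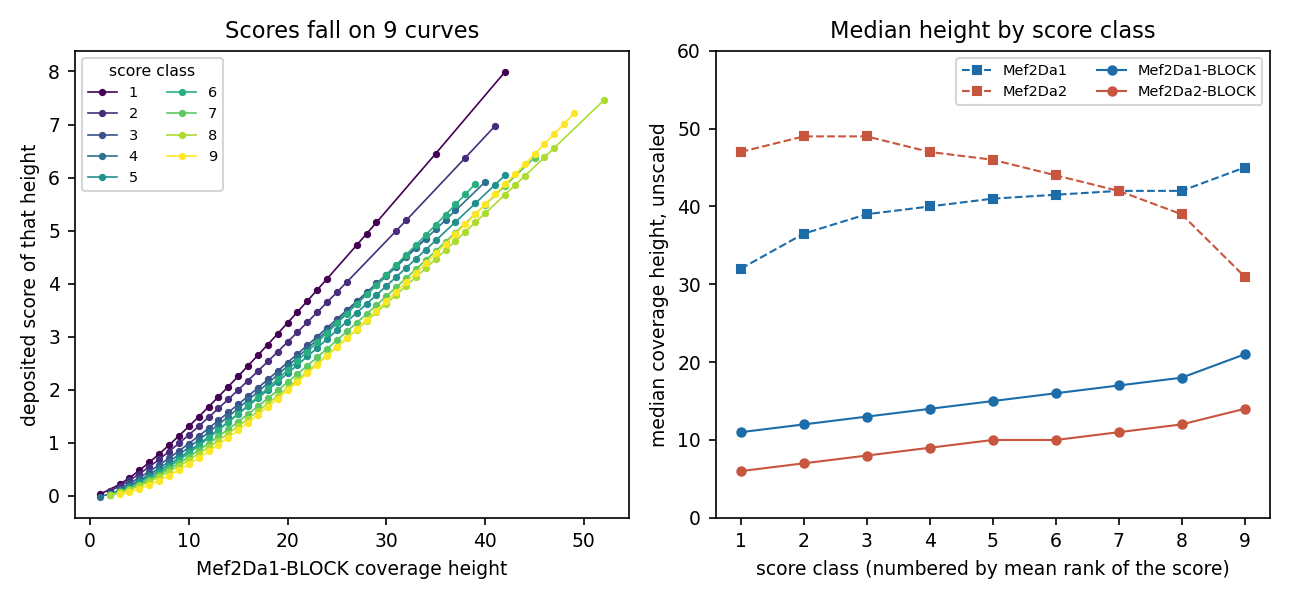
Left, the deposited score of Mef2Da1-BLOCK against its coverage height, each point standing for all regions of a class with that height and colours marking the 9 classes. Right, median unscaled height of each library by class; both blocked libraries rise from class 1 (11 and 6) to class 9 (21 and 14), as does Mef2Da1 (32 to 45), while Mef2Da2 is lower in class 9 (31) than in class 1 (47).

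By score, the Spearman correlation of the blocked libraries was lower than by height, at 0.39 against 0.48. A score of at least 3 was given to 3259 regions of Mef2Da1-BLOCK (16.5%) and 727 of Mef2Da2-BLOCK (3.68%), with 269 in common. This overlap was not compared with that of the height lists, which have other sizes. Nor was it set against the shares of all regions, so the count is no measure of agreement. The highest Mef2Da1-BLOCK score, 7.99, was on chromosome 5, 126672367 to 126672970, at a height of 42 against 7 in Mef2Da2-BLOCK and unblocked heights of only 34 and 36. It belonged to class 1. The next were 7.46 on chromosome 15, 82979178 to 82980777, with heights of 52 and 15, and 7.21 on chromosome 8, 87187743 to 87188445, with 49 and 20. In Mef2Da2-BLOCK the highest were 5.58 on chromosome 9, 56350174 to 56350617 (height 32, against 21 in Mef2Da1-BLOCK), 5.19 on chromosome 8, 87212897 to 87213334 (34 against 28), and 5.18 on chromosome 6, 148719738 to 148720458 (30 against 22). No Mef2Da2-BLOCK score reached 6 (0 of 19749), while 34 of Mef2Da1-BLOCK did. Scores depend on depth, which was unknown, so these counts do not compare amounts of background.

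For Mef2Da1, the share of regions with a listed peak differed with the height of Mef2Da1-BLOCK. Among regions that the combined table gives a Mef2Da1 −log10 p of at least 6, nearly all held a listed Mef2Da1 peak while Mef2Da1-BLOCK was low: 95.6% of 5903 regions below a height of 26 and 98.3% of 1079 from 26 to below 30. The share was 96.7% of 637 regions from 30 to below 34, 81.8% (75.1 to 87.4) of 165 from 34 to below 36, and 67.4% (57.0 to 76.6) of 95 from 36 to below 38. At 38 or more it was 4 of 124 (3.23%, 0.89 to 8.05). Listed Mef2Da1 peaks were thus rare from a blocked height of 38, although the median Mef2Da1 height was 62.5 there and 58 below 26. The Mef2Da2 list showed no such step by Mef2Da1-BLOCK height. Of the regions with a Mef2Da2 −log10 p of at least 6 and a Mef2Da1-BLOCK height of 38 or more, 77 of 78 held a listed Mef2Da2 peak (98.7%, 93.1 to 99.97).

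Read by score the step was similar, at a level chosen after the values were seen. With a Mef2Da1-BLOCK score of 5 or more, 11 of 138 such regions held a Mef2Da1 peak (7.97%, 4.05 to 13.8), against 459 of 526 with a score of 4 to below 5. For Mef2Da2 the own control was rarely so high: 20 of 22 regions with a Mef2Da2-BLOCK height from 30 to below 34 held a listed Mef2Da2 peak, and 1 of 5 from 34 to below 36, too few to place a step. In the highest 1% of Mef2Da1-BLOCK outside the shared regions (n = 213), 38.5% of regions held a Mef2Da2 peak only and 2.35% a Mef2Da1 peak only, against 20.1% and 15.2% of all regions. In the highest 1% of Mef2Da2-BLOCK outside the shared regions (n = 195) the shares were 5.64% and 40.5%. The highest 10% did not show this contrast. There, 11.8% of the 1794 regions high in Mef2Da1-BLOCK only held a Mef2Da2 peak only and 24.9% a Mef2Da1 peak only. These shares were 8.06% and 28.9% of the 1476 regions high in Mef2Da2-BLOCK only, and 9.2% and 31.25% of the 576 high in both. At this level all 3 sets thus held more regions with a Mef2Da1 peak only.

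**Figure D5:**
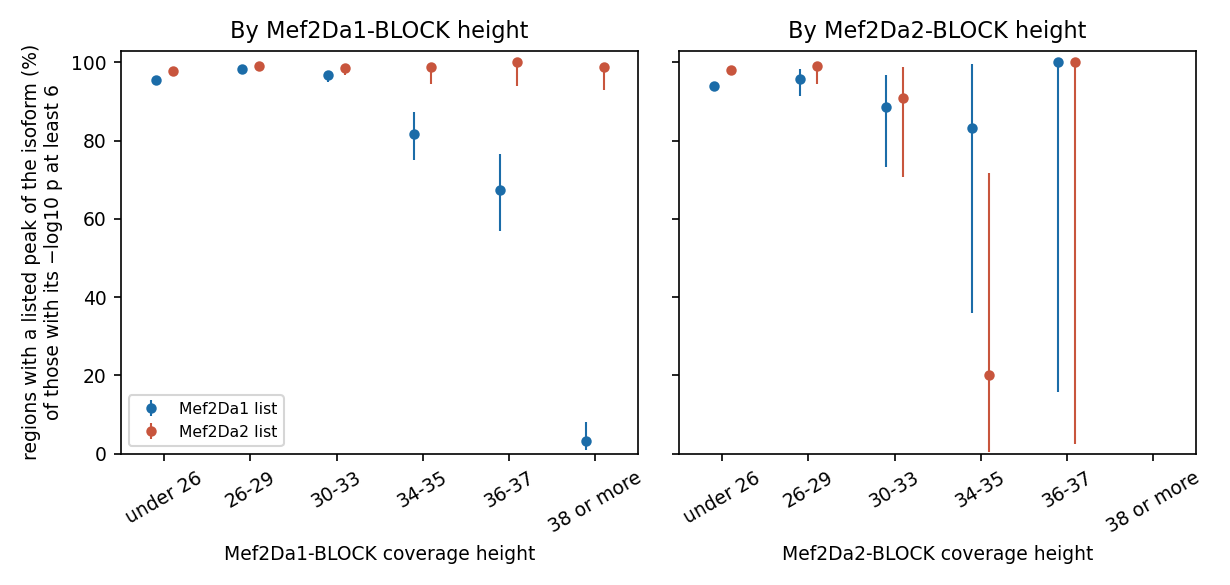
Percentage of regions with an isoform −log10 p of at least 6 that hold a listed peak of that isoform (points, with exact 95% intervals; Mef2Da1 blue, Mef2Da2 red), by the coverage height of Mef2Da1-BLOCK (left) and Mef2Da2-BLOCK (right). At a Mef2Da1-BLOCK height of 38 or more, 3.23% hold a Mef2Da1 peak and 98.7% a Mef2Da2 peak; the 3 highest bands of Mef2Da2-BLOCK hold few or no regions.

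By class of listed peak, blocked heights were highest in regions with a Mef2Da1 peak only (medians 22 and 15, n = 3006) and lowest in those with a Mef2Da2 peak only (15 and 10, n = 3968). They were 19 and 13 where both isoforms had a peak (n = 5247) and 18 and 12 where neither had (n = 7528). The ratio of the blocked libraries moved little over these groups, with median log2 ratios of −0.02, 0.04, 0.01 and 0.02 in the same order. Score class differed between them: class 9 held 75.6% where Mef2Da1 alone had a listed peak and 22.9% where Mef2Da2 alone had one. Median width differed too, at 624 bp and 488 bp in these groups, and its part in the heights was not tested. Within class 9 the blocked medians were 23 and 16 against 19 and 13 in these groups, differences of 4 and 3 units against 7 and 5 over all classes.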

How the data were processed

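ChIP-seq coverage was analysed for 4 libraries, 1 per group, with groups taken from the sample titles. The aligner was BWA 0.5.9 with build mm9, per the submitters' processing notes. How peaks were called and filtered, how PCR duplicates were treated, how combined regions were picked and how deep the libraries were is not given in the sources used here. The authors deposited whole-number coverage heights (signal) per region and library, not scaled to depth, and −log10 p values for the isoforms; the same deposited column of the blocked libraries was treated as a score. Columns of the table carry other names than the sample titles and were assigned by the name of each isoform's peak list.

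Heights of the blocked libraries were scaled to their totals over the table, and the log2 ratio used a pseudocount of 1. No test was run, since each side had 1 library. Shares carry exact (Clopper-Pearson) 95% intervals. A peak was counted in a region from 1 shared bp. Regions named in the text were the 6 highest by mean scaled height, the 6 largest ratios each way where a blocked height reached 30, and the 3 highest scores of each library. The members, lists and rules were chosen with earlier results of these data known; the score classes and the shares of listed peaks by blocked height were chosen after the values were seen. Ratio and class code was tested on simulated data. No genome or annotation of mm9 and no protein sequences were used here, so genes, sequence content and the peptides' family members were not analysed. Region coordinates are printed as in the table. Software was pandas 2.3.3, SciPy 1.17.1, NumPy 2.4.6 and Matplotlib 3.10.9 under Python 3.11.15.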

Additional observations from a re-analysis of the deposited data

How the results depend on the processing

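Of 73 alternative values, 41 stayed within the main value's tolerance (95% interval; for counts, 1.5 times), 31 moved and 1 changed sign; 15 alternatives were added after seeing the data. Median-ratio scaling, totals without the highest 1% and leaving out chromosome 15 left the shares and counts at 2-fold within it. Without scaling, 74.6% of regions were within 2-fold, 4931 and 85 were higher in Mef2Da1-BLOCK and Mef2Da2-BLOCK, and the median log2 ratio was 0.58, by construction; with median scaling it was 0. A pseudocount of 5 gave 97.1%, 378 and 202, and a difference in the share past 2-fold between the highest and lowest 25% by height of −1.36 points. Within 1.5-fold were 71.1%. In regions without a listed peak the values were 89.8%, 469 and 301 of fewer regions, −7.7 points for the same difference, a top-list overlap of 20.9% and a Spearman correlation of 0.38. In score class 9 alone they were 93.4%, 372 and 271, −4.7 points, 21.3% and 0.36, the median log2 ratio was −0.022 and its difference between the widest and narrowest 25% was −0.077. Without regions in which neither height reached 10, the latter was −0.17 and the correlation 0.42; by score the correlation was 0.39. The overlap of the highest lists was 5.33% for the highest 1%, and 28.98% without chromosome 15, where the Mef2Da2-BLOCK list began at 19 in place of 20. The rise in median height from class 1 to class 9 was 10 and 8, and 8 and 7 in regions without a listed peak; in the middle 50% by width it was 9.5 and 6.5. The cause of these shifts was not tested. No paired analysis was possible because each group has 1 library, and none could be left out. Unknown depth limits every comparison between libraries.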

Other observations

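Along the chromosomes, background was compared in the 804 windows of 1 Mb that held at least 10 regions (14978 regions). Window means ran from 11.6 to 29.1 for Mef2Da1-BLOCK and from 7.4 to 19.7 for Mef2Da2-BLOCK, and had a Spearman correlation of 0.72 over windows. Of the 40 windows highest in each library, the highest 5% of all windows used, 17 were common (42.5%). The fullest window in both was on chromosome 8, from 87 to 88 Mb, with means of 29.1 and 19.7 over 57 regions. Its neighbour from 86 to 87 Mb came second for Mef2Da1-BLOCK, with 28.8, and ninth for Mef2Da2-BLOCK, with 17.2. Window means also went with the median width of their regions, at correlations of 0.50 and 0.51.

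No window had a median log2 ratio past 1 in size. The lowest was −0.73 on chromosome 18, from 6 to 7 Mb (10 regions), and the highest 0.67 on chromosome 12, from 3 to 4 Mb (12 regions). Neighbouring regions within 1 kb of each other (1593 pairs) had correlations of 0.12 for Mef2Da1-BLOCK and 0.16 for Mef2Da2-BLOCK heights, and −0.03 for the ratio. For regions 100 to 1000 kb apart (4048 pairs) they were 0.06, 0.08 and 0.02.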
